A study of Mus musculus with 4 samples.

Results

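The genes described here encode the constitutive 26S proteasome, its assembly chaperones, its activators and its inhibitor. They were chosen by symbol alone, as genes named Psma, Psmb, Psmc, Psmd, Psme, Psmf or Psmg with a number. The interferon-inducible subunits Psmb8, Psmb9, Psmb10, Psme1 and Psme2 were set aside. The rule found 45 of the 24421 genes listed. Expression was measured by sequencing poly(A) RNA from 4 C57BL/6 mice. In 2 mice Usp25 was intact (Usp25+/+, animals 139 and 140), and 2 mice lacked it (Usp25-/-, animals 826 and 850). All 4 are labelled as females, 8 weeks old, given 2.5% DSS for 5 days and then water for 2 days. DSS, or dextran sulfate sodium, damages the lining of the colon. The labels give the tissue as a short piece of colon near the anus. Animals without DSS were not analysed here, and the labels do not give the kind of Usp25 allele or say whether the mice were littermates.

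Of the 45 genes 2 matched the symbol pattern without being constitutive subunits. Psmc3ip encodes a partner of meiotic recombinases that was named for binding an ATPase of the proteasome. Psme2b is an intronless copy of the interferon-inducible activator gene Psme2 and is annotated as Psme2b-ps. It lies on mm9 chromosome 11 from 48758856 to 48759692, and 794 bases of its transcript matched that of Psme2 at 99.4% identity. Reads from Psme2 and Psme2b can therefore hardly be told apart, and the level of Psme2b is uncertain. One further gene, Psmb11, was too low to be tested. Of the 45 genes 44 were tested, and 42 of these 44 encode constitutive subunits or their helpers.

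The proteasome degrades proteins tagged with ubiquitin. Its 20S core is a stack of rings, with outer rings of alpha subunits (Psma genes) that gate the entrance and inner rings of beta subunits (Psmb genes), of which Psmb5, Psmb6 and Psmb7 cut peptide bonds. The 19S particle has a base and a lid. The base holds ATPases (Psmc genes) that unfold substrates and receptors that bind ubiquitin, such as Psmd4. The lid (most Psmd genes) removes ubiquitin. Usp25 encodes a deubiquitinating enzyme, which takes ubiquitin off other proteins and is no proteasome subunit. Under interferon, Psmb8, Psmb9 and Psmb10 replace Psmb5, Psmb6 and Psmb7 in newly built cores.

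Usp25 was lower in both Usp25-/- libraries, but the libraries went against the labelled tissue and sex. The level of Usp25 was 38.5 and 16.6 FPKM (fragments scaled by transcript length and library size) in Usp25+/+ 139 and 140. In Usp25-/- 826 and 850 it was 2.65 and 1.71 FPKM. The log2 fold change of Usp25 was -3.07 (SE 0.47), and with 2 libraries per genotype even this gene had a limma adjusted p of 0.960. Of 12 colon epithelium markers 9 were below 1 FPKM in every library, and of these Cdx1, Zg16 and Aqp8 were listed at 0 throughout. The other 3 of the 12 were Krt20 (4.31, 3.11, 52.4 and 7.35 FPKM in 139, 140, 826 and 850), Lgals4 (7.04, 9.83, 70.6 and 28.8 FPKM) and Vil1 (up to 1.46 FPKM). The summed level of the list was 12.4 and 13.2 FPKM in Usp25+/+ and 124.7 and 37.0 FPKM in Usp25-/-, highest in 826, and its part in the proteasome values was not tested. The 12 lung epithelium markers had library medians of 49.0 to 90.3 FPKM. Xist did not exceed 0.11 FPKM and the Y-linked Ddx3y ranged from 12.7 to 30.3 FPKM, against the labelled sex. Library totals were 526652 to 565645 FPKM, and the depth behind them is unknown. The libraries differed in how many genes were listed above 0, at 20556, 15603, 17242 and 15805 in 139, 140, 826 and 850. The part of this difference in the proteasome values was not tested. Genotype labels are used below as given, and no value is read as one of colon. In tissue RNA, fewer cells of a type and less RNA per cell cannot be told apart.

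By the median of each role, levels were highest in the core rings and lowest in the chaperones, activators and inhibitor. FPKM is a value per transcript length, so levels can be set side by side between genes. The 7 tested beta ring genes had 4-library means of 102 to 187 FPKM with a median of 136 FPKM. The alpha ring genes other than Psma8 had means of 69.8 to 169 FPKM. The order of the 2 rings was not the same in every animal. The beta ring had the higher median in 139 and 140 (117 and 149 FPKM, against 102 and 117 FPKM for the alpha ring without Psma8), and the alpha ring in 826 and 850 (159 and 132 FPKM, against 140.2 and 131 FPKM). The 6 ATPases of the base had means of 55.0 to 80.9 FPKM and a median of 67.4 FPKM. The lid genes had a median of 46.7 FPKM. Psmd8, a lid subunit, stood apart from them at 162, 243, 229.7 and 232 FPKM in 139, 140, 826 and 850. Assembly chaperones, which are not part of the finished particle, had means of 9.59 to 26.1 FPKM. Activators and inhibitor had means of 5.97 to 27.4 FPKM. The order of the 42 genes was nearly the same in every pair of libraries, with Spearman coefficients of 0.97 to 0.99 across genes, which share their libraries and are not independent replicates.

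**Figure D1:**
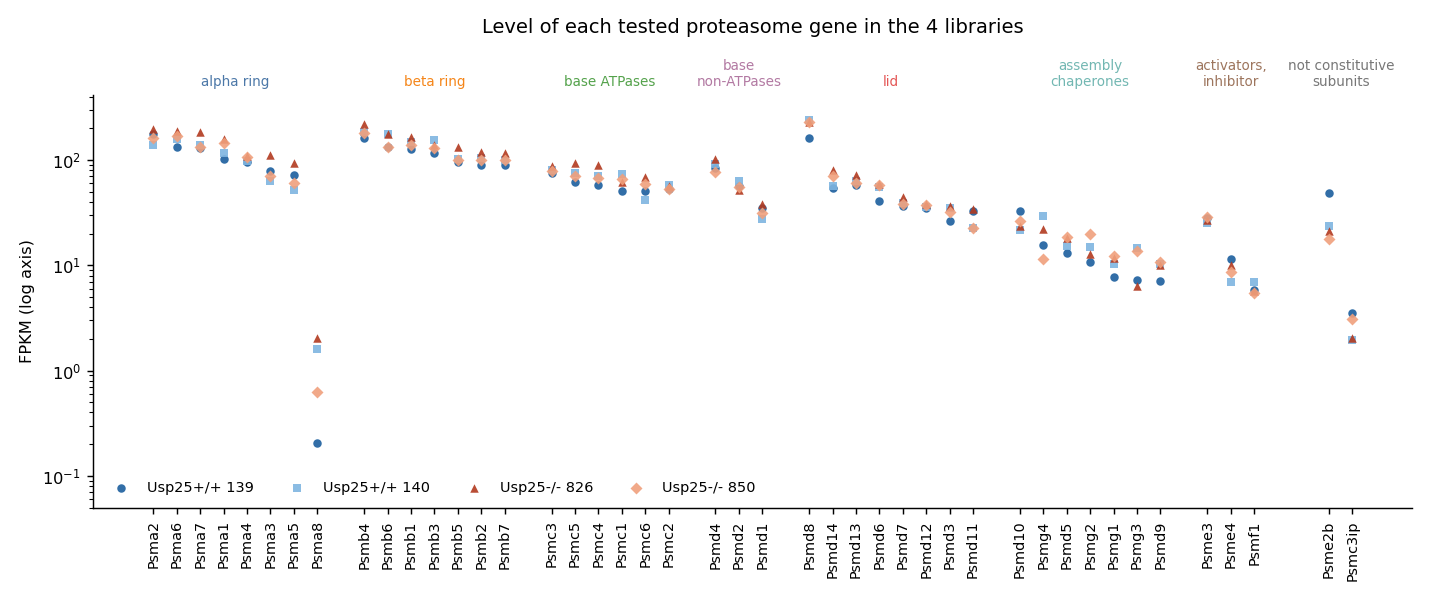
Level in FPKM (log axis) of the 44 tested proteasome genes in each of the 4 libraries, grouped by role and sorted by mean within a role. Core ring genes lie at about the same height in all libraries and above assembly chaperones, while Psma8 lies at 0.207 to 2.03 FPKM.

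The tissue-restricted core genes had the lowest levels. Psma8, the alpha subunit of the testis proteasome, was listed at 0.207, 1.60, 2.03 and 0.631 FPKM, and its ubiquitous paralog Psma7 at 129, 140.0, 185 and 132 FPKM. Psma8 thus spread 9.78-fold between libraries at a level where FPKM is least certain. Psmb11, the beta subunit of the thymus cortex, was listed at 0.134, 0, 0.120 and 0.0896 FPKM and was under the minimum mean of 1 FPKM for testing. The 6 listed testis germ cell markers were below 1 FPKM in every library. Foxn1, the defining factor of thymic epithelium, was listed at 0 in 3 libraries and at 0.106 FPKM in 826. The other 5 listed genes of thymic cortical epithelium, which other cells also express, reached 1 FPKM in at least 1 library, from Prss16 (0 to 1.58 FPKM) to Krt8 (247 to 1067 FPKM).

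No proteasome gene passed the test between the genotypes, in a design where Usp25 did not pass it either. Limma on log2(FPKM + 1) called 0 of 44 at an adjusted p of 0.05 over all 12011 tested genes, where 0% of all genes were called. At an unadjusted p of 0.05 it also gave 0 of the 44, against 3.12% of all genes (375). Adjusted p ran from 0.960 to 0.999. The fitted changes were small and mostly of one sign: 36 of the 44 had a positive log2 fold change (Usp25-/- minus Usp25+/+) and 8 a negative one, where 53.5% of all tested genes were positive. Without Psmc3ip and Psme2b these counts were 36 and 6. The median over the 44 was 0.16, beside 0.03 over all tested genes. None of the 42 subunit and helper genes exceeded 0.5 in absolute log2 fold change, which 25.9% of all tested genes did. For any 1 gene, 2 libraries against 2 allow no exact permutation p under 0.333.

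**Figure D2:**
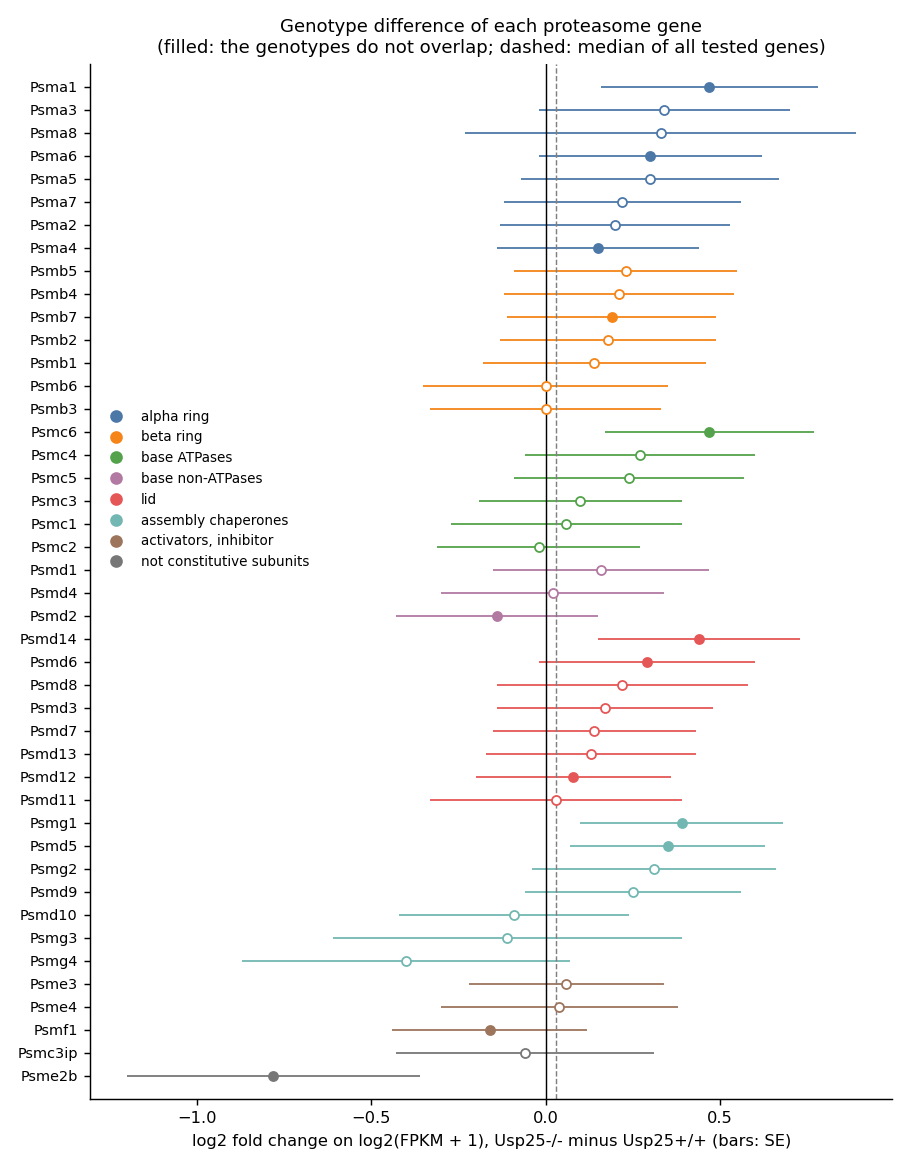
Fitted log2 fold change of each tested gene on log2(FPKM + 1), Usp25-/- minus Usp25+/+, with its SE from limma (n = 2 per genotype), coloured by role. Filled points mark the genes whose genotypes do not overlap, and the subunit and helper genes lie between -0.40 and 0.47.

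The positive median rested mostly on animal 826. Of the 44 genes 27 were highest in 826, 8 in 140, 5 in 850 and 4 in 139, while 25.4% of all tested genes were highest in 826. Among the 42 subunit and helper genes, 826 lay above both Usp25+/+ libraries in 29, which it did in 31.6% of all tested genes. Animal 850 lay above both in 13 of 42, beside 30.3% of all tested genes, and between the Usp25+/+ libraries in 24. The lowest library was 139 in 27 of 44 (61.4%), as it was in 39.4% of all tested genes. On the log2 scale the median deviation from each gene's own mean was -0.17 in 139, -0.01 in 140, 0.20 in 826 and -0.04 in 850. The same over all tested genes was -0.08, 0.02, 0.00 and 0.02. Without 826 the median log2 fold change of the 44 genes was 0.05, equal to that of all genes in the same fit, with 28 positive and 16 negative. Without 850 it was 0.26, without 139 it was 0.10 and without 140 it was 0.23. The medians of all genes in those fits were 0.01, -0.01 and 0.10, in that order.

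**Figure D3:**
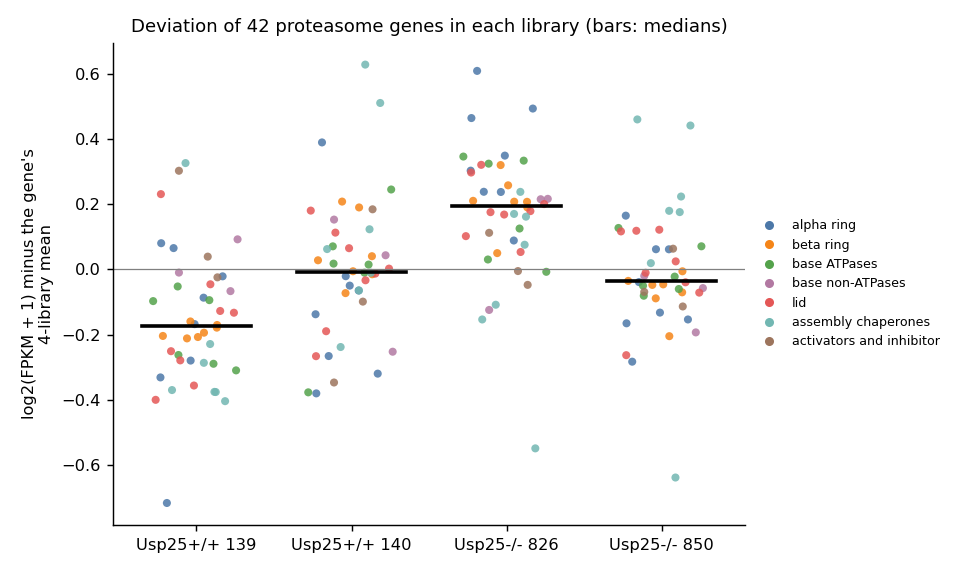
Deviation of 42 subunit and helper genes from their own 4-library mean, in log2(FPKM + 1), in each library, with points coloured by role and black bars at the medians. The median bar lies at 0.20 in Usp25-/- 826 and at -0.17 in Usp25+/+ 139, while 140 and 850 lie near 0.

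Markers of other cells moved with these 2 libraries. Animal 826 had the highest level of 6 of 6 gastric surface genes, whose summed level was 119.5 and 145 FPKM in Usp25+/+ and 2812 and 1013 FPKM in Usp25-/-. Of these genes Muc5ac was near the floor, at no more than 0.504 FPKM in any library. Gkn3 was at 0 in both Usp25+/+ libraries, and Tff1 stood at 71.3, 105, 1848 and 759 FPKM. Animal 139 had the highest level of 13 of 13 neutrophil markers, whose summed level was 48370 and 872 FPKM in Usp25+/+ and 2296 and 1402 FPKM in Usp25-/-, with none of them at 0 in 139. Their part in the proteasome values was not tested. Scaling the libraries by the median ratio of all genes gave factors of 0.967, 1.01, 0.998 and 1.03, and the median log2 fold change of the 44 genes was then 0.13, with 33 positive and 11 negative.

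The alpha ring had a median log2 fold change of 0.30, with 8 of 8 positive, the highest of the roles with all 4 libraries. Psma1 was listed at 102 and 117 FPKM in the Usp25+/+ mice against 159 and 144 in the Usp25-/- mice, a mean of 109 ± 10.5 against 152 ± 10.3 FPKM (SD, n = 2 each). Both Usp25-/- libraries lay above both Usp25+/+ libraries. Its log2 fold change of 0.47 (SE 0.31) had a limma adjusted p of 0.960. Psma1 lies on mm9 chromosome 7 from 121408120 to 121419632 on the minus strand. Psma4 had the smallest change of the ring, with 96.5 and 98.0 against 109 and 107 FPKM and a log2 fold change of 0.15 (SE 0.29). Psma6 was the third of the ring without overlap, at 133 and 159 against 191 and 169 FPKM. In Psma2, Psma3, Psma5, Psma7 and Psma8 the genotypes overlapped, with 850 within the Usp25+/+ range. Psma2, Psma3 and Psma5 had the same order of libraries, with 826 highest and 140 lowest. Psma5 was listed at 72.03, 52.1, 94.3 and 60.6 FPKM in 139, 140, 826 and 850. Without 826 the alpha ring median was 0.04, with 5 positive and 3 negative, and that of the assembly chaperones was 0.36. Without 140 it was 0.23, below the chaperones (0.46), ATPases (0.34), lid (0.28) and beta ring (0.26).

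Among the beta ring genes the catalytic subunits had log2 fold changes of 0.00 to 0.23. Psmb5, which cuts after hydrophobic residues, was listed at 95.7 and 102 FPKM in the Usp25+/+ mice against 134 and 101 in the Usp25-/- mice. Only 826 stood apart there, and the log2 fold change of 0.23 (SE 0.32) was 0.03 without it and 0.44 without 850. Psmb6, which cuts after acidic residues, was listed at 134 and 176 against 178 and 133 FPKM, so that each genotype held 1 high and 1 low library. Its log2 fold change was 0.00 (SE 0.35), and -0.03 under scaling by the median ratio. Psmb7, which cuts after basic residues, was listed at 89.9 and 100.3 against 116 and 101 FPKM and was the only beta gene without overlap, by a gap of 0.01 on the log2 scale. The structural subunit Psmb3 had the smallest fitted change at 0.00 (SE 0.33), with 117 and 157 against 140.2 and 131 FPKM. Psmb1, Psmb2 and Psmb4, also structural, had log2 fold changes of 0.14, 0.18 and 0.21, each highest in 826 and lowest in 139. The ring median was 0.18, with 7 of 7 positive, or 5 of 7 under scaling by a common total or by the median ratio. Without 826 the ring median was 0.03, with 4 positive and 3 negative, and without 139 it was 0.06, with 5 positive and 2 negative. Without 140 it was 0.26 and without 850 it was 0.28, each with 7 positive.

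In the base, the ATPase Psmc6 had the widest change. It was listed at 51.0 and 41.8 FPKM in the Usp25+/+ mice against 69.7 and 59.8 in the Usp25-/- mice, with no overlap, and its log2 fold change of 0.47 with SE 0.30 (adjusted p = 0.960 by limma) was the largest of the 42 genes beside Psma1. The ATPase Psmc2 was the steadiest of the 6 genes, at 53.0 and 57.8 against 56.2 and 53.1 FPKM, a log2 fold change of -0.02 (SE 0.29). Psmc1, Psmc3, Psmc4 and Psmc5 had log2 fold changes of 0.06, 0.10, 0.27 and 0.24, all with overlap. Psmc4 and Psmc5 were highest in 826. The 3 non-ATPases of the base had a median of 0.02, or -0.01 under scaling by the median ratio. Psmd2, a scaffold for ubiquitin shuttles and deubiquitinases, was 1 of 3 genes lower without overlap, at 56.2 and 63.1 against 51.8 and 55.8 FPKM, with a log2 fold change of -0.14 (SE 0.29). Psmd1, the other scaffold, was listed at 35.2 and 27.5 against 38.4 and 31.6 FPKM. The ubiquitin receptor Psmd4 had a log2 fold change of 0.02.

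With all 4 libraries the 8 lid genes had positive log2 fold changes, where 53.5% of all tested genes did, with a median of 0.15. Without 826 the lid median was 0.07 and without 139 it was 0.08, each with 6 positive and 2 negative. Without 140 it was 0.28, with 7 positive and 1 negative, and without 850 it was 0.26, with 8 positive. Psmd14, the metalloprotease that removes ubiquitin chains as substrates enter, was listed at 54.4 and 56.8 FPKM in the Usp25+/+ mice against 81.4 and 70.6 in the Usp25-/- mice. Both Usp25+/+ libraries lay close together and below both Usp25-/- libraries, with means of 55.6 ± 1.70 against 76.0 ± 7.63 FPKM (SD, n = 2 each). The log2 fold change was 0.44 (SE 0.29; limma adjusted p = 0.960), and 0.34 to 0.54 when any 1 library was left out. Psmd14 lies on mm9 chromosome 2 from 61549751 to 61638433 on the plus strand. Psmd6 and Psmd12 were also higher without overlap, Psmd12 at 35.5 and 35.8 against 38.0 and 37.3 FPKM, a log2 fold change of 0.08. Psmd11 had the smallest lid change at 0.03 (SE 0.36). It was listed at 32.6 and 22.8 against 34.2 and 22.9 FPKM, so that 139 and 826 lay together above 140 and 850. Psmd3, Psmd7, Psmd8 and Psmd13 had log2 fold changes of 0.17, 0.14, 0.22 and 0.13, each with overlap.

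The assembly chaperones were low, with signs that differed between genes. Psmg1, a chaperone of the alpha ring, was listed at 7.83 and 10.4 FPKM in the Usp25+/+ mice against 11.8 and 12.4 in the Usp25-/- mice. The chaperone of the base Psmd5 was listed at 13.1 and 15.4 against 18.3 and 18.4 FPKM. Both were higher in Usp25-/- without overlap, by 0.39 (SE 0.29) and 0.35 (SE 0.28) in log2 fold change. Psmg4 had the lowest log2 fold change of the 42 genes at -0.40 (SE 0.47), and its libraries were scattered at 15.7 and 29.3 against 22.1 and 11.6 FPKM. Its partner Psmg3 was listed at 7.21 and 14.5 against 6.43 and 13.8 FPKM, a split that again put 139 with 826. Psmg2, the partner of Psmg1, had a log2 fold change of 0.31 and the base chaperones Psmd9 and Psmd10 of 0.25 and -0.09. In this role 4 genes were highest in 850 and 0 in 826.

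Activators and inhibitor showed no common direction. Psme3, which encodes the nuclear activator PA28 gamma, was listed at 28.1 and 25.5 against 27.2 and 28.6 FPKM, a log2 fold change of 0.06 (SE 0.28). Psme4, which encodes the activator PA200, was listed at 11.6 and 7.001 against 10.00 and 8.70 FPKM. Psmf1, which encodes the inhibitor PI31, was listed at 5.84 and 6.90 against 5.73 and 5.43 FPKM, lower without overlap by a gap of 0.02 on the log2 scale, with a log2 fold change of -0.16 (SE 0.28). Outside the constitutive genes, Psme2b had the largest absolute change of the 44, at 48.7 and 23.8 against 21.3 and 17.8 FPKM and a log2 fold change of -0.78 with SE 0.42 (adjusted p = 0.960 by limma). Without 139 it was -0.27 and without 140 it was -1.28. Psmc3ip was listed at 3.52 and 1.96 against 2.04 and 3.07 FPKM.

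Counted over all roles, 10 of the 44 genes were higher without overlap and 3 were lower, where 19.0% of all tested genes were higher and 14.7% were lower without overlap (33.8% together). The 10 were Psma1, Psma4, Psma6, Psmb7, Psmc6, Psmd5, Psmd6, Psmd12, Psmd14 and Psmg1, and the 3 were Psmd2, Psme2b and Psmf1. The share that was higher lies near that of all genes. The spread over the 4 libraries was narrower than that of the transcriptome as a whole. The difference between the highest and the lowest library had a median of 0.51 on the log2 scale over the 42 genes, beside 0.79 over all tested genes and 0.79 over those with a mean of at least 5 FPKM. These sets were not matched for level. Library medians were 55.3 to 71.2 FPKM over the 42 genes and 15.1 to 15.3 FPKM over those with a mean of at least 5 FPKM. The part of level in the narrower spread was not tested.

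The catalytic subunits could also be set against their interferon-inducible replacements within each library, so that the scaling of a library has almost no part. The ratio of Psmb8 to Psmb5 was 1.57, 0.915, 0.441 and 0.818 in 139, 140, 826 and 850. The ratio of Psmb9 to Psmb6 was 1.13, 0.412, 0.206 and 0.364, and that of Psmb10 to Psmb7 was 0.883, 0.676, 0.344 and 0.530. All 3 ratios ranked the libraries in the same order, with 139 highest and 826 lowest, and in none did the genotypes overlap. The differences of the log2 ratios, taken from FPKM + 1 (Usp25-/- minus Usp25+/+), were -0.98, -1.29 and -0.84, each with an exact two-sided permutation p of 0.333, the smallest that 2 against 2 can give. The nearest libraries of the genotypes were 140 and 850, with log2 ratios of -0.13 and -0.29 for Psmb8 to Psmb5, -1.27 and -1.44 for Psmb9 to Psmb6, and -0.56 and -0.90 for Psmb10 to Psmb7. Leaving out 1 library at a time gave differences of -1.43 to -0.54, -2.01 to -0.58 and -1.15 to -0.54, in that order.

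**Figure D4:**
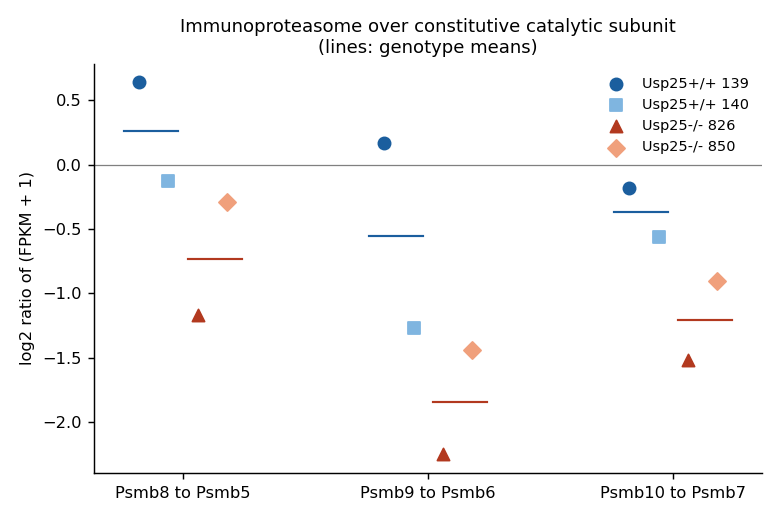
Log2 ratio of each interferon-inducible catalytic subunit to the constitutive subunit it replaces, from FPKM + 1, in the 4 libraries, with lines at the genotype means (n = 2 each). In every pair Usp25+/+ 139 is highest and Usp25-/- 826 is lowest, while 140 and 850 lie closer together.

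All 5 interferon-inducible genes had negative log2 fold changes, though 2 of them were positive without 139 and 1 without 826. Psme1 and Psme2, which encode the inducible activator, overlapped between the genotypes, at -0.03 (SE 0.43) and -0.67 (SE 0.53). Psmb9 was listed at 151 and 72.4 FPKM in the Usp25+/+ mice against 36.7 and 48.6 in the Usp25-/- mice, a log2 fold change of -1.29 (SE 0.45), with a limma unadjusted p of 0.0338 and an adjusted p of 0.960. Psmb8 stood at 150 and 93.0 against 59.0 and 82.3 FPKM and Psmb10 at 79.5 and 67.8 against 39.8 and 53.5 FPKM. All 12 type I interferon-response genes were highest in 139, with summed levels of 479 and 55.8 FPKM in Usp25+/+ and 55.5 and 55.8 FPKM in Usp25-/-, and 0 of them were at 0 in any library. Of 12 interferon-gamma response genes 9 were highest in 139 and 3 in 140, with list medians of 182 and 28.02 against 13.0 and 20.5 FPKM. Their summed levels, 5028 and 6757 against 3529 and 4967 FPKM, were carried by B2m, Cd74 and H2-Aa and were highest in 140. Their part in the ratios was not tested.

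Promoter stretches are shown for Psma1, which shared the highest log2 fold change, and for 2 constitutive catalytic subunits beside the inducible subunits that replace them. Each line gives the 150 bases before the annotated start from RefSeq on GRCm38.p6, 5′ to 3′ on the strand of the gene. Capitals mark the antioxidant response core TGANNNNGC, which Nfe2l1 and Nfe2l2 can bind, the CCAAT box, the STAT element TTCNNNGAA and the interferon regulatory factor element (GAAA, any 2 bases, GAAA), searched on both strands. Overlapping matches run together.
Psma1 (chr7:114276117-114276266, minus strand): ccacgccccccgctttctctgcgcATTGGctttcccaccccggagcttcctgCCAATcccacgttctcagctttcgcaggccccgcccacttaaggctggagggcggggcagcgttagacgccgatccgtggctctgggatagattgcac
Psmb5 (chr14:54617996-54618145, minus strand): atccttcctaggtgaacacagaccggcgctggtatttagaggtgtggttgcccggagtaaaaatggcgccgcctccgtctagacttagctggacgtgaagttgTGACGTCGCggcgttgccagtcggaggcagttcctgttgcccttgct
Psmb8 (chr17:34198045-34198194, plus strand): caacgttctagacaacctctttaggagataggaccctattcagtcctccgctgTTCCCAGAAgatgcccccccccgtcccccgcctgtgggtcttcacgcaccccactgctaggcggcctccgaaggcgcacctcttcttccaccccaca
Psmb6 (chr11:70525207-70525356, plus strand): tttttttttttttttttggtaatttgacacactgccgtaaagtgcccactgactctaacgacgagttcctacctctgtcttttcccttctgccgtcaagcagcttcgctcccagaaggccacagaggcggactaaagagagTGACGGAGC
Psmb9 (chr17:34187331-34187480, minus strand): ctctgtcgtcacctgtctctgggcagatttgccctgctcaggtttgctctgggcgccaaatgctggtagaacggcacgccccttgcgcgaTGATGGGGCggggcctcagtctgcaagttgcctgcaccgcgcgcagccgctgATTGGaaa

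Psmb5 and Psmb6 each held 1 antioxidant response core in this stretch, Psma1 held 2 CCAAT boxes, and Psmb8 held a STAT element. The pattern TTCNNNGAA, though not the bases matched in Psmb8, reads the same on both strands. Psmb9 held 1 antioxidant response core and 1 CCAAT box. Windows from 250 bases before to 50 bases after the start were found for 37 of the 45 members, with 39 windows. Psma8, Psmb1, Psmb2, Psmb7, Psmc3, Psmd3, Psmd7 and Psmg2 were not matched. TGANNNNGC was in 22 of 39 windows (56.4%), beside 41.3% of all 32851 windows and 43.3% of those of tested genes. The narrower TGACNNNGC was in 15.4%, beside 12.4% of all windows and 14.7% of those of tested genes. CCAAT was in 35.9%, beside 37.4%, and the GC box GGGCGG in 51.3%, beside 35.7% of all windows and 61.6% of those of tested genes. The interferon regulatory factor element was in 4 of 39 windows (10.3%), beside 3.44% of all windows and 3.2% of those of tested genes. TTCNNNGAA was in 2 (5.13%), beside 8.30% of all windows and 6.88% of those of tested genes. A match is a description of letters and not a bound site.

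The genes that work with the proteasome also gave no calls. Of 35 ubiquitin and proteasome partner genes, all tested, 0 passed the threshold in either direction and 0 had an unadjusted limma p under 0.05. Their median log2 fold change was 0.14, with 24 positive and 11 negative, and 12 were higher (34.3%, beside 19.0% of all tested genes) and 2 lower without overlap (5.71%, beside 14.7%). Nfe2l1, the transcription factor that restores proteasome genes when the proteasome is impaired, was listed at 12.5 and 30.2 FPKM in the Usp25+/+ mice against 24.6 and 27.1 in the Usp25-/- mice. Only 139 stood apart, and the log2 fold change of 0.39 (SE 0.47) was -0.22 without it. Nfe2l2, a related factor of the oxidative stress response, was listed at 166 and 118.5 against 167 and 151 FPKM. Ddi2, the protease that activates the Nfe2l1 protein, had the largest absolute log2 fold change of the list with all 4 libraries. It was listed at 19.3 and 19.9 against 9.18 and 14.6 FPKM, lower without overlap, with a log2 fold change of -0.71 with SE 0.33 (adjusted p = 0.960 by limma). Without 826 it was -0.40. Pomp, the maturation factor of the 20S core, was steady at 141 and 160.2 against 173 and 153 FPKM. Adrm1, a ubiquitin receptor of the 19S base, was listed at 21.9 and 50.3 against 41.6 and 35.2 FPKM, and its log2 fold change of 0.20 (SE 0.46) was -0.38 without 139.

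Genes that encode ubiquitin were abundant. Ubb, which encodes a chain of ubiquitin repeats, was listed at 624 and 788 FPKM in the Usp25+/+ mice against 853 and 955 in the Usp25-/- mice, higher without overlap with a log2 fold change of 0.36 (SE 0.37). Rps27a, which encodes ubiquitin joined to a ribosomal protein, had a positive log2 fold change, 0.62 (SE 0.37). Rps27a was listed at 448 and 464 against 815 and 605 FPKM, higher without overlap. Akirin2, which brings proteasomes into the nucleus, was listed at 14.4 and 21.96 against 25.7 and 23.6 FPKM, with a log2 fold change of 0.44 (SE 0.32). Repeats and processed copies make the levels of Ubb and Rps27a uncertain.

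Processed copies also touch the members. Of the 45 genes 8 had at least 1 copy elsewhere in the mm9 genome, aligned over at least 300 bases at 95% identity or more (Psma3, Psma4, Psma5, Psmb3, Psmb5, Psmc1, Psmd2 and Psmd11). The copy of Psmb5 on chromosome 7 from 3181090 to 3181960 matched its whole transcript of 871 bases at 99.0%, and the copy of Psmd2 on chromosome 10 covered 91.9% of its transcript at 97.0%. How such reads were counted is not stated, so the levels of these 8 genes are uncertain. The other 36 tested members had a median log2 fold change of 0.17, with 29 positive and 7 negative. They include Psme2b, which is itself a copy of Psme2 and whose level is uncertain.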

How the data were processed

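Poly(A) RNA of 4 mice was sequenced as paired reads without strand information, per the labels' protocols, so overlapping and antisense genes cannot be separated. TopHat2 2.1.1, Cufflinks, cutadapt and mm9 are named in the submitters' processing notes, whereas annotation, filters and scaling are not given. The deposited values were taken as FPKM because Cufflinks is named, although no header states the unit. Whole reads could not be recovered, so depth is unknown and no counting interval is given.

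The analysis used log2(FPKM + 1), a scale on which low genes seem to change less, for the 12011 of 24421 genes whose mean reached 1 FPKM. Limma 3.58.1 in R 4.3.3 compared the genotypes (eBayes with trend, two-sided, Benjamini-Hochberg, threshold 0.05, 2 residual degrees of freedom). The power of this fit for changes of the size seen in the proteasome genes was not tested. The labels name separate animals, and the animal numbers pair no libraries. Coordinates came from GENCODE vM1 on NCBIM37 (mm9), and genome copies from megablast. The members and lists were chosen with earlier results of these data known. Values in every library were given for Usp25, the catalytic subunits, the highest and lowest log2 fold change of each role, the widest gaps, low members, and fixed and largest-change partner genes. Other members described per library (Psma5, Psma6, Psma7, Psma8, Psmd8, Psmd12, Psmg3 and Psme4) were picked after their values were seen. The motifs TGACNNNGC and TTCNNNGAA, the interferon regulatory factor element, and leaving out Psme2b or genes with copies, were added after seeing the data. Of the partner genes that this choice covers, 2 are not reported here.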

Additional observations from a re-analysis of the deposited data

How the results depend on the processing

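Each fit was repeated with a pseudocount of 0.1, without a filter or with a mean of at least 5 FPKM, under 3 scalings, with 2 other variance models, without Psmc3ip and leaving out 1 library at a time, where the lone library of a genotype is taken to be as variable as the other genotype. In all of these, limma called 0 of the proteasome genes. Their median log2 fold change stayed positive, at 0.05 without 826, 0.26 without 850 and 0.10 to 0.23 without 139 or 140, so its size depended on single libraries. The count of genes higher without overlap was 13 to 29 and that of genes lower without overlap was 4 to 9 when a library was left out, against 10 and 3 with all 4, since 1 library overlaps less easily with 2 (53.0% to 80.8% of all genes then did not overlap). Over all genes the unadjusted count at 0.05 was 108 to 2593 when a library was left out. Of 40 genes refitted singly, 19 changed sign under some alternative, 17 of them only when a library was left out. Psmb6 and Psmb3 had log2 fold changes of -0.01 each under a common total and -0.03 each under the median ratio. When a library was left out the log2 fold changes ran from -0.20 to 0.21 for Psmb6, -0.21 to 0.21 for Psmb3, -0.08 to 0.04 for Psmc2, -0.36 to 0.25 for Psmc3ip, -0.01 to 0.33 for Psmd1, -0.25 to 0.32 for Psmd11, -0.84 to 0.04 for Psmg4, -0.01 to 0.13 for Psme3, -0.22 to 1.00 for Nfe2l1, -0.06 to 0.42 for Nfe2l2, -0.38 to 0.78 for Adrm1, -0.02 to 0.61 for Psma5, -0.02 to 0.46 for Psma7, -0.23 to 0.88 for Psma8, -0.07 to 0.51 for Psmd8, -0.60 to 0.39 for Psmg3, -0.28 to 0.37 for Psme4, -0.52 to 0.45 for Psme1 and -1.38 to 0.03 for Psme2. Among genes that kept their sign, the range was 0.03 to 0.44 for Psmb5, 0.09 to 0.28 for Psmb7, 0.20 to 0.57 for Psmg1, 0.19 to 0.53 for Ubb, 0.16 to 0.73 for Akirin2 and -1.01 to -0.40 for Ddi2. The cause was not tested. No paired analysis was possible because the labels do not pair animals between the genotypes or say whether they were littermates.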
